A study of Mus musculus with 8 samples.

Results

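Pax3, Pax6 and Pax7 are the paired box genes best known from the developing neural tube. They were chosen by symbol and make up 3 of the 26608 genes listed for each library. All 3 passed the filter on low counts, as did 11779 genes in total. The symbols of the 6 remaining Pax genes listed (Pax1, Pax2, Pax4, Pax5, Pax8 and Pax9) serve for comparison. Tag counts came from 8 libraries of FVB mouse neural tube at day 8.5 of gestation, cut by laser from cryosections beside closure site 1, the place where the neural folds first meet. Closed tissue lay just posterior to the anterior edge of that site and open tissue just anterior to it, and the dams were diabetic or normal. The 4 groups are diabetic closed (libraries 15 and 16), diabetic open (13 and 14), normal closed (11 and 12) and normal open (9 and 10), with 2 libraries each. The labels do not say how the diabetes arose, how many embryos a library pools, or whether closed and open tissue came from the same embryos, so a p-value here sets a difference against the spread of these 8 libraries, which may be technical.

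Pax proteins bind DNA through the paired domain and set cell identity along the dorsoventral axis of the neural tube. Pax3 and Pax7 are close relatives that mark dorsal neural progenitors, neural crest precursors and the dermomyotome of the somite. Pax6 marks progenitors of intermediate and ventral spinal cord and is known for its role in the eye. Mouse embryos without Pax3 (Splotch mutants) fail to close the neural tube, and loss of the tumour suppressor p53 has been reported to prevent that failure. Lower Pax3 in embryos of diabetic mice has been reported before, so the effect of the dam on Pax3 is a question these libraries bear on.

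A serial analysis of gene expression (SAGE) library counts 1 short tag per transcript, next to the last site of the anchoring enzyme NlaIII before the poly(A) tail. The predicted tags show what a count of each gene rests on. They were read from mouse transcripts of GENCODE release M21 (assembly GRCm38), and the capitals mark the enzyme site. The Pax3 tag (chromosome 1, minus strand) was shared by both annotated coding transcripts. The Pax6 tag shown (chromosome 2, plus strand) belonged to 5 of 11 coding transcripts, and 4 other tags covered the remaining transcripts. Both coding transcripts of Pax7 (chromosome 4, minus strand) had a tag of their own.
Pax3: CATGtaaaaagtgcagtaaatattt
Pax6: CATGccaaagcctttgtattttctt
Pax7 longer transcript: CATGaggggtgtgagtgggatgtgt
Pax7 shorter transcript: CATGgaggcctggactcggcttcct
Each of these tags occurred in the transcripts of 1 gene only, and no exon of another annotated gene lay over it. The deposited values are sums per gene, so which tag was read is not known from them. Pax6os1, an antisense gene that overlaps Pax6, was listed at 0 in all 8 libraries.

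Library totals ran from 5041586 to 16655583 counts, and levels are given below as counts per 1000000 of the library total (CPM). Intervals on single values are exact binomial intervals at 95%, of the count within the library total, and cover counting error only. Diabetic open library 13 stood apart, since the neural progenitor factor Sox2 was at 30.9 CPM there and between 287 and 550 CPM in the 7 other libraries (Sox2 was singled out after its values were seen). Ddx3y, a Y-linked gene, was between 188 and 273.5 CPM in the 4 diabetic libraries and in normal libraries 9 and 11, but at 0.882 CPM or less in normal libraries 10 and 12. Xist, transcribed from the inactive X chromosome, was near 300 CPM in those 2 normal libraries (297 and 301) and at 4.27 CPM or less in the 6 others. The sexes of the embryos, as far as these genes show them, thus differed between the dam groups, and the values of normal libraries 9 and 11 alone are given beside the dam comparisons of Pax3 and Pax6 over both regions. The part of embryo sex in the other dam comparisons was not tested.

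Pax3 was detected in every library. Its level was 136.5 and 50.5 CPM in diabetic closed tissue, 7.75 and 34.7 CPM in diabetic open tissue, 75.0 and 98.3 CPM in normal closed tissue, and 56.6 and 112 CPM in normal open tissue. Both diabetic open libraries lay below all 6 others, an order that 4.19% of the 11779 tested genes also showed. The counts behind these levels ran from 129 in diabetic open library 13 to 688 in diabetic closed library 15. The 95% intervals of the diabetic open libraries (6.47 to 9.20 and 30.9 to 39.0 CPM) reached no other library's interval, so counting error does not span the gap. The spread within a group was wide in comparison, with means of 93.5 ± 60.8 CPM in diabetic closed, 21.2 ± 19.1 in diabetic open, 86.7 ± 16.5 in normal closed and 84.3 ± 39.2 in normal open tissue (SD, n = 2 each).

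**Figure D1:**
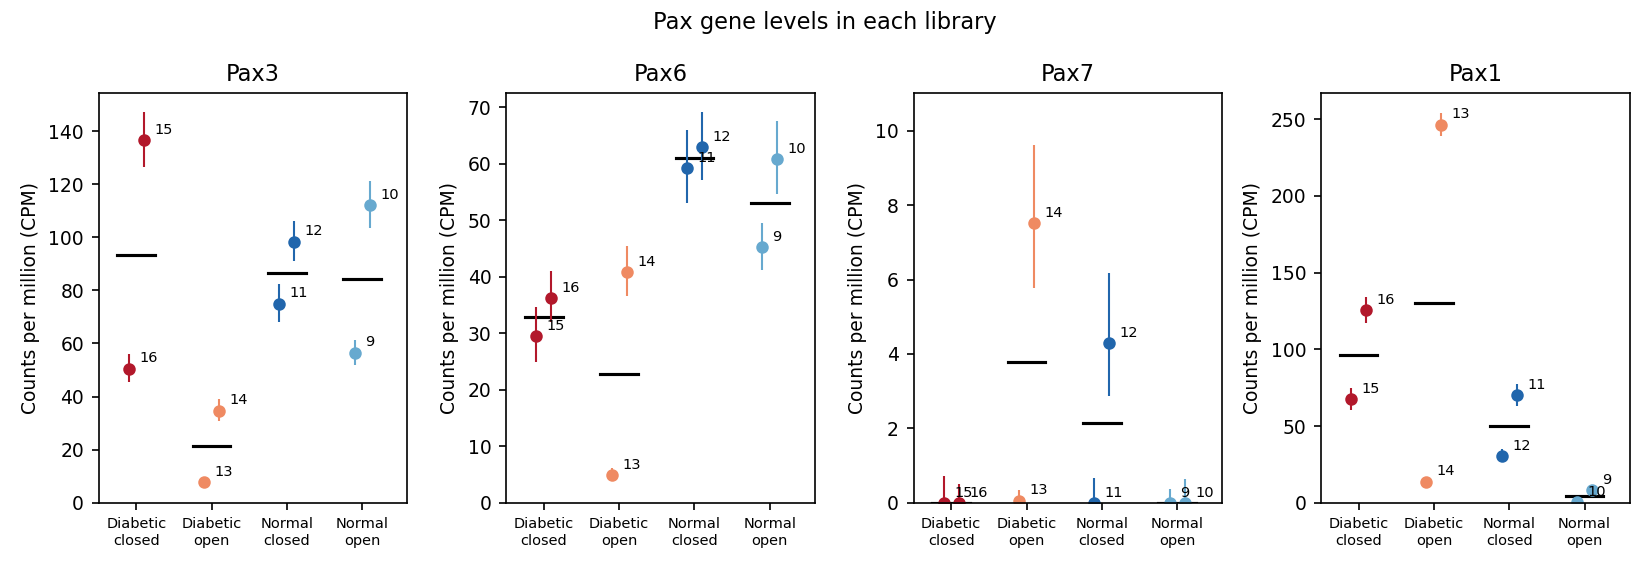
Level of Pax3, Pax6, Pax7 and Pax1 in CPM in each of the 8 libraries, with the library number beside each point, exact binomial 95% intervals as vertical lines and group means as horizontal bars. Both diabetic open libraries are the lowest for Pax3, the 4 diabetic libraries lie below the 4 normal ones for Pax6, and Pax7 has more than 1 count in libraries 12 and 14 alone.

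Within diabetic dams, Pax3 was higher in both closed libraries than in both open ones, with a log2 fold change of 2.19 (SE 0.72), the difference with the smallest p among the 7 comparisons for this gene. The unadjusted p was 0.0129 in edgeR's quasi-likelihood test, and the Benjamini-Hochberg adjusted p was 1. The 2 closed libraries did not overlap with the 2 open ones, as was the case in the same direction for 18.5% of genes tested. At an unadjusted p below 0.05, edgeR had 327 genes in this comparison (2.78%), and it called 0 of 11779 after adjustment. DESeq2 called 47 genes, or 0.399%, and Pax3 was not among them (adjusted p = 0.234). Without the filter on low counts, edgeR's adjusted p for Pax3 was 0.00251 at the same log2 fold change of 2.19, and without library 16 it was 0.0467 at 2.75. Leaving out library 13 gave 1.48, and leaving out library 14 gave 3.66.

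The same contrast in normal dams gave 0.10 (SE 0.69) for Pax3, and closed and open libraries overlapped. The test of the difference between dams, the interaction of region and dam, gave 2.09 (SE 0.99) with an adjusted p of 1.00 in edgeR's quasi-likelihood test (unadjusted p = 0.0611). A larger closed-to-open difference in diabetic dams was therefore not shown. Over both dams, closed tissue averaged 90.1 ± 36.6 CPM and open tissue 52.8 ± 44.3 CPM (SD, n = 4 each), a log2 difference of 1.14 (SE 0.60) with an edgeR adjusted p of 1.00. That value was 0.60 without library 13.

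In open tissue, the Pax3 libraries of diabetic dams lay below those of normal dams, with a log2 fold change of -1.99 (SE 0.72). The edgeR quasi-likelihood test gave an unadjusted p of 0.0197 and a Benjamini-Hochberg adjusted p of 0.647, and DESeq2 an adjusted p of 0.135. Non-overlap in this direction held for 15.1% of genes tested. This comparison had the most genes at an unadjusted p below 0.05 (851, or 7.22%) and the most DESeq2 calls (199, or 1.69%), with 0 edgeR calls. Without the filter on low counts, the edgeR adjusted p of Pax3 was 0.00589. Other genes passed in that setting here as well, and their numbers are given in the closing section. Leaving out library 13 gave -1.28 and leaving out library 14 gave -3.46. It shares the diabetic open libraries with the closed-against-open comparison above, so the 2 differences are not independent.

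In closed tissue the dam groups overlapped for Pax3, with a log2 fold change of 0.09 (SE 0.69). Over both regions, Pax3 averaged 57.4 ± 55.6 CPM in diabetic and 85.5 ± 24.6 CPM in normal dams (SD, n = 4 each). The log2 fold change was -0.94 (SE 0.60), with an edgeR adjusted p of 0.999, and -0.40 without library 13. Normal libraries 9 and 11, in which Ddx3y was also high, had 56.6 and 75.0 CPM of Pax3. In tissue sections, fewer cells that express a gene and less RNA per cell cannot be told apart.

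**Figure D2:**
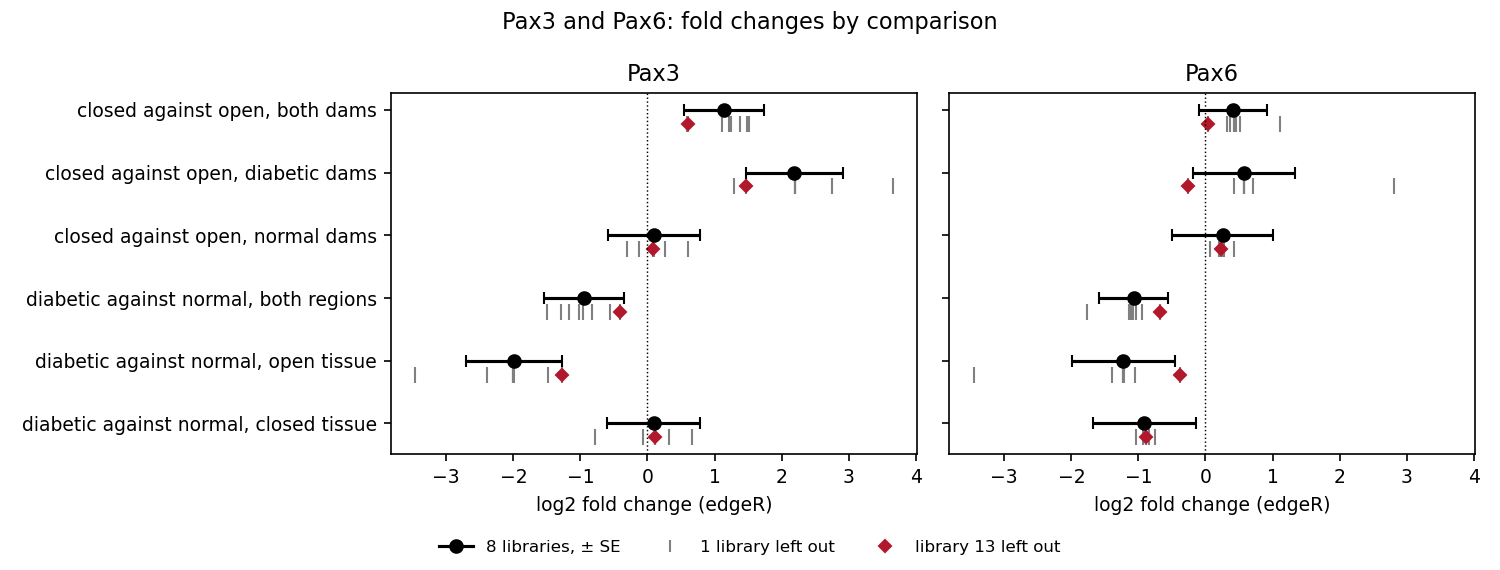
Log2 fold change of Pax3 and Pax6 from edgeR in 6 comparisons, with ± SE bars for all 8 libraries, grey ticks for fits that leave out 1 library and red diamonds for the fit without library 13. The Pax3 differences within diabetic dams (2.19) and within open tissue (-1.99) are the farthest from 0 with all 8 libraries, and both move towards 0 without library 13 (1.48 and -1.28).

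Pax6 was lower in every library of diabetic dams than in any library of normal dams, although the test did not pass. Its level was 29.55 and 36.3 CPM in diabetic closed tissue, 4.92 and 40.8 CPM in diabetic open tissue, 59.3 and 62.9 CPM in normal closed tissue, and 45.2 and 60.9 CPM in normal open tissue. Of the genes tested, 1.15% showed that order of 4 libraries below 4. The closest pair was diabetic open library 14 (342 counts, interval 36.6 to 45.4 CPM) and normal open library 9 (458 counts, 41.2 to 49.6 CPM), whose intervals overlapped. Normal libraries 9 and 11 had 45.2 and 59.3 CPM. That they lay above the 4 diabetic libraries is part of the order just given and not a separate test.

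Pax6 averaged 27.9 ± 16 CPM in diabetic dams and 57.1 ± 8.04 CPM in normal dams (SD, n = 4 each). The log2 fold change was -1.07 (SE 0.52), and it did not pass: edgeR's quasi-likelihood test gave an unadjusted p of 0.0632 and a Benjamini-Hochberg adjusted p of 0.999, and DESeq2 an adjusted p of 0.671. In this comparison edgeR called 0 genes. DESeq2 called 37 (0.314%), and 536 (4.55%) were below 0.05 in edgeR before adjustment. Without library 13 the log2 fold change was -0.68. The dam differences by region were -0.91 (SE 0.76) in closed tissue and -1.22 (SE 0.77) in open tissue. The value in open tissue was -0.39 without library 13 and -3.46 without library 14. Each of these fits leaves 1 diabetic open library, and the second leaves library 13 alone. In closed tissue, which does not hold library 13, the diabetic libraries averaged 32.9 ± 4.75 CPM and the normal ones 61.1 ± 2.57 CPM (SD, n = 2 each). They did not overlap, as was so for 12.5% of genes in that direction.

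Closed and open tissue overlapped for Pax6 in both dams. The log2 fold change of closed against open was 0.57 (SE 0.76) in diabetic dams, 0.26 (SE 0.76) in normal dams and 0.41 (SE 0.51) over both. The first of these was -0.27 without library 13. The interaction of region and dam was 0.31 (SE 1.07) for Pax6.

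Pax7 was at the edge of detection. It had 63 counts in diabetic open library 14 (7.52 CPM, interval 5.78 to 9.62) and 29 counts in normal closed library 12 (4.29 CPM, interval 2.88 to 6.17). Diabetic open library 13, the deepest, had 1 count, and the 5 other libraries had 0. The gene therefore split the libraries within 2 groups rather than between groups. Over the 2 libraries of a group, a count of 0 allows up to 3 counts. The mean CPM of the other group was divided by that level. This gave 15.4-fold for diabetic open over diabetic closed tissue and 11.3-fold for normal closed over normal open tissue. It gave 19.96-fold for diabetic open over normal open tissue and 8.74-fold for normal closed over diabetic closed tissue. These ratios allow for counting error in the group at 0 only. They are not lower bounds, and each rests on 1 library. By values alone, diabetic closed tissue lay below diabetic open tissue (15.3% of genes) and diabetic open tissue above normal open tissue (17.4% of genes) without overlap. For library 13 this rests on 1 count (interval 0.00152 to 0.334 CPM), which is within the counting error of the libraries at 0. The edgeR quasi-likelihood test gave adjusted p-values of 1, 1, 0.683 and 1 for these 4 contrasts. Pooled over dams or over regions, the edgeR fit gave log2 fold changes of -0.26 and 0.50. The F statistics were near 0 (unadjusted p = 0.985 and 0.962 in edgeR's quasi-likelihood test). The SE computed from them, 13.7 and 10.2, are unstable for that reason, and neither value is a usable estimate.

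Genes that were well counted in 1 library and at 0 in another were not rare here. Of 1657 genes with 40 to 90 counts in library 14, between 5.85% and 32.2% were at 0 in each of the 7 other libraries. Fewer were low in all 6 libraries other than 12 and 14: 43 of these genes (2.60%) had 0 or 1 count in each, whatever their count in library 12. Of 1431 genes with 20 to 40 counts in library 12, 50 (3.49%) did, whatever their count in library 14. Having counts in both libraries, as Pax7 did, was not required.

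Among the other Pax genes, Pax1 and Pax9, which mark the sclerotome of the somite, had counts. Pax1 was at 67.4 and 126 CPM in diabetic closed tissue, 246.5 and 13.7 CPM in diabetic open tissue, 70.0 and 30.7 CPM in normal closed tissue, and 8.29 and 0.176 CPM in normal open tissue. It was highest in library 13, the library with the least Pax3 and Pax6. Its log2 fold change in diabetic against normal open tissue was 4.83 (SE 1.45), with an edgeR adjusted p of 0.598 and no overlap, as in 17.4% of genes in that direction. Pax9 had 3.07 CPM in diabetic closed library 16 and 3.41 CPM in normal closed library 12 and was at 0 elsewhere. Pax2, Pax4, Pax5 and Pax8 were listed at 0 in all 8 libraries. Cdk4, a cell cycle kinase of most dividing cells, was listed at 0 as well (chosen after its values were seen), so a 0 does not show that a gene was silent.

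The ratio of Pax3 to Pax6 within a library does not depend on depth or on scaling. Pax3 made up 82.2% of the counts of both genes in diabetic closed library 15 (interval 79.4 to 84.7%, exact binomial) and 58.2% in library 16. It made up 61.1 and 46.0% in diabetic open tissue, 55.8 and 61.0% in normal closed tissue and 55.6 and 64.8% in normal open tissue. Library 15 was the highest of the 8 and library 14 the lowest, and the groups overlapped in every comparison. Library 13, lowest in both genes, had a share within the range of the normal libraries. Pax3 and Pax6 were thus low together there.

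Set against Sox2, which was itself lowest in library 13, the low values of that library were no longer low. Pax6 had 9.84 and 6.88 counts per 100 Sox2 counts in diabetic closed tissue, 15.95 and 9.77 in diabetic open tissue, 15.1 and 15.2 in normal closed tissue, and 8.23 and 21.2 in normal open tissue. On this scale diabetic and normal libraries overlapped, with a mean log2 difference of -0.48, while those of closed tissue did not overlap (-0.88). Pax3 had 45.4 and 9.58 counts per 100 Sox2 counts in diabetic closed tissue, 25.1 and 8.32 in diabetic open tissue, 19.1 and 23.7 in normal closed tissue, and 10.3 and 39.0 in normal open tissue, and groups overlapped in every comparison. Another neural denominator gave another picture. Per 1000 counts of the 14 listed neural progenitor markers, which Sox11 and Lin28a dominate, Pax6 had 1.08 to 7.92 counts in diabetic and 8.40 to 14.4 in normal libraries, without overlap (mean log2 difference -1.35). On that scale Pax3 had 1.70 and 6.06 counts in diabetic open and 10.5 and 20.8 in normal open tissue. Both denominators were chosen after the values had been seen. Sox2 was low in library 13, so division by it had to raise the ratios of that library. The list sum varied little (4364 to 5733 CPM), so ratios to it had to stay near the order of the CPM values. Neither scale is therefore a separate test of the Pax levels.

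**Figure D3:**
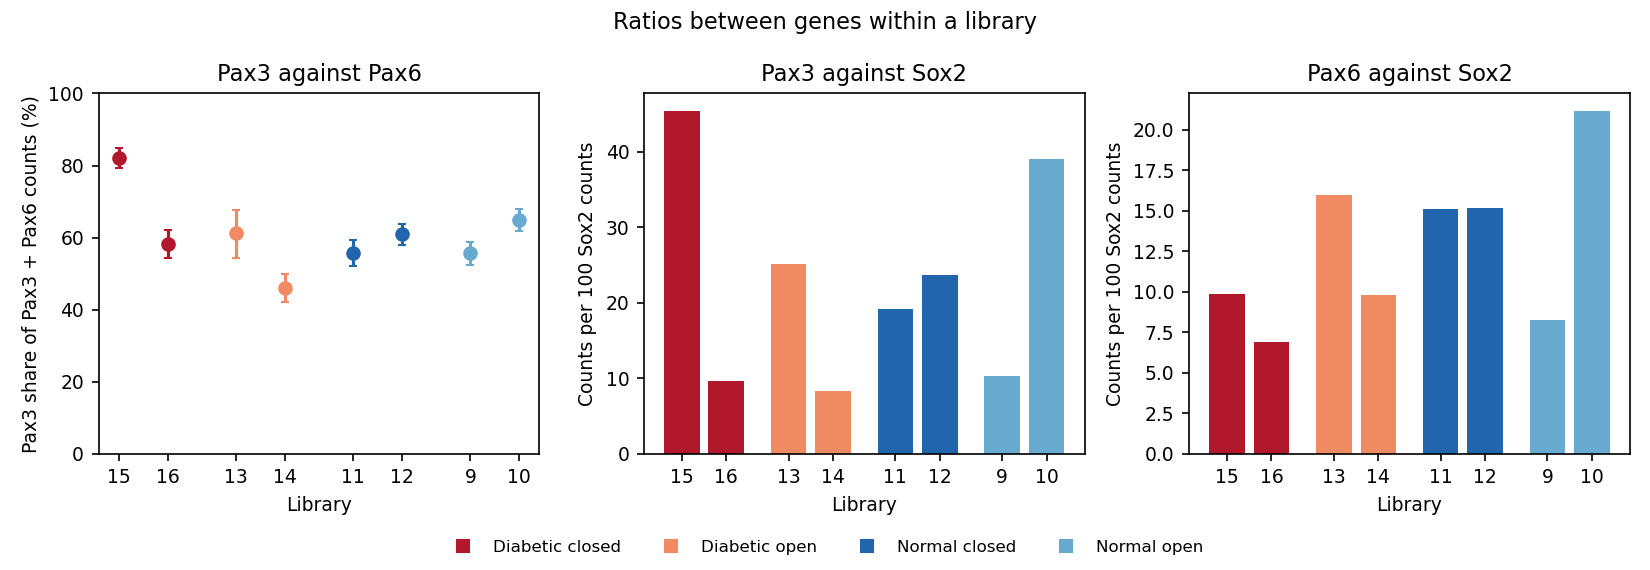
Share of Pax3 in the summed counts of Pax3 and Pax6 (percent, exact binomial 95% intervals), and counts of Pax3 and of Pax6 per 100 Sox2 counts, in each of the 8 libraries. Library 15 has the highest Pax3 share (82.2%). Library 13, which has the lowest CPM of both genes and of Sox2, has 15.95 Pax6 counts per 100 Sox2 counts, within the normal range of 8.23 to 21.2.

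Some genes followed the members' patterns closely. Likeness was the root mean square difference of log2 CPM (prior count 2) after centring each gene on its mean over the 8 libraries, computed for 11017 genes with a mean of at least 10 counts. Nearest to Pax3 were Cyc1 (0.383), a subunit of respiratory complex III, Mt2 (0.428), a metallothionein, Kdm4b (0.470), a histone demethylase, Mycl1 (0.481), a Myc family factor, and Grb7 (0.481), a signalling adaptor. The median over all genes compared was 1.48, and Pax6 stood at rank 37 from Pax3 (0.658). Nearest to Pax6 were Cpn1 (0.264), Sult4a1 (0.269), Trp53i11 (0.344), Itpk1 (0.349) and Dpysl5 (0.363). Pax3 was at rank 99 from Pax6. All 10 of these genes were lowest in library 13, as Pax3 and Pax6 were. Cyc1 for example was at 30.9 CPM there and at 189 CPM or more elsewhere. Pax3 and Pax6 lay farthest from their own means in library 13 (-2.83 and -2.80), so a choice by likeness favours genes low there. The shared minimum follows from that choice and is no separate result. Rasgrp4 (0.156) and 4921536K21Rik (0.205) were nearest to Pax7 and had counts in libraries 12 and 14 alone. With 8 points per gene, these distances are descriptions.

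**Figure D4:**
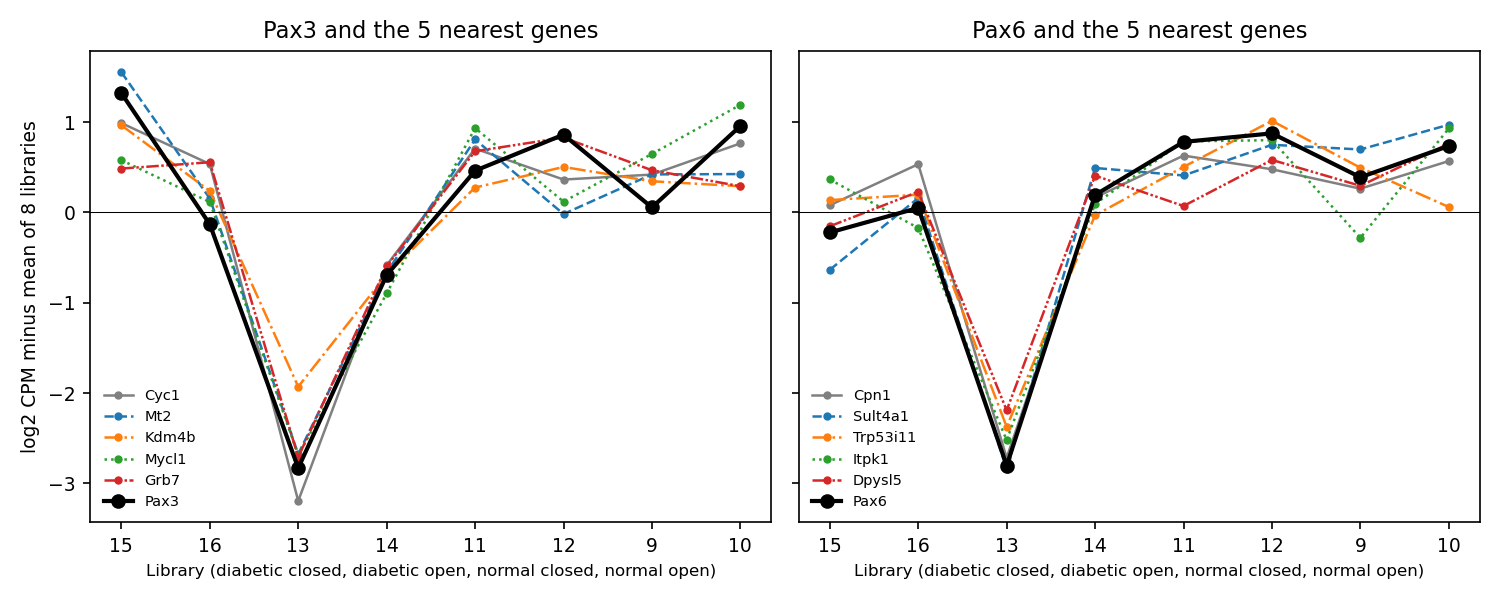
Log2 CPM of Pax3 (left) and Pax6 (right), black, with the 5 nearest genes of each, the nearest in grey and the others in colour. Values are centred on each gene's mean over the 8 libraries, in the order diabetic closed, diabetic open, normal closed, normal open. Every line has its minimum in library 13, which the choice of genes by likeness favours.

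Genes that pattern the dorsal neural tube share the domain of Pax3. Of 25 listed dorsal and neural crest genes, 21 were tested. In diabetic dams, 17 had a positive and 4 a negative closed-against-open log2 fold change, with a median of 1.35 (all genes tested had a median of 0.03, and 52.6% were positive). In edgeR 0 of the 21 passed, 7 were below 0.05 before adjustment (2.78% of all genes), and DESeq2 called 3 (0.399% of all genes). Closed libraries lay above open ones without overlap for 11 of the 21, against 18.5% of all genes. Msx1, a homeobox factor of the dorsal midline, had 1015 and 352 CPM in diabetic closed tissue and 190 and 67.7 CPM in diabetic open tissue, a log2 fold change of 2.45 (SE 0.61; edgeR adjusted p = 1, DESeq2 adjusted p = 0.00323). Tcfap2a, a neural crest and surface ectoderm factor chosen after its values were seen, had 26.2 and 11.4 CPM in diabetic closed tissue and 0.180 and 0 CPM in diabetic open tissue.

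In open tissue, 6 of the 21 dorsal genes had a positive and 14 a negative log2 fold change for diabetic against normal dams. The median was -1.02 (all genes 0.02, with 51.1% positive). In edgeR 0 passed, 6 were below 0.05 before adjustment (7.22% of all genes), and DESeq2 called 2 (1.69% of all genes). Msx1, Msx3, Wnt3a, Tcfap2a, Tcfap2b and Sox9 lay below the normal open libraries without overlap (6 of 21, against 15.1% of all genes). Of these, Wnt3a and Tcfap2b were at 0 in both diabetic open libraries. They had only 1.68 and 0.592 CPM in normal open library 9, so their gaps rest on few counts. Ets1, a factor of neural crest and endothelium, lay above the normal open libraries (1 of 21, against 17.4%). Zic1, a zinc finger factor of the dorsal neural tube, had 4.74 and 112 CPM in diabetic open and 352 and 105 CPM in normal open tissue, which overlap.

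Ventral and intermediate genes, the neighbours of the Pax6 domain, had 12 of 16 tested. For diabetic against normal dams over both regions, 6 had a positive and 6 a negative log2 fold change, with a median of -0.01 (all genes 52.7% positive, median 0.04). Both edgeR and DESeq2 called 0 of them (0.314% of all genes in DESeq2), and 0 were below 0.05 in edgeR before adjustment (4.55% of all genes). All 4 diabetic libraries lay below all 4 normal ones for 0 of the 12, and for 1.15% of all genes. Dbx1, an intermediate progenitor factor, had 1.19 and 43.25 CPM in diabetic closed, 2.22 and 228.5 CPM in diabetic open, 53.1 and 5.92 CPM in normal closed, and 231 and 49.9 CPM in normal open tissue. Its libraries thus differed widely within each group. Gli1, a Hedgehog pathway factor, was higher in closed tissue (335 and 384 CPM in diabetic, 437 and 390 CPM in normal dams) than in open tissue (235.5 and 197 CPM in diabetic, 242 and 294 CPM in normal dams) in all libraries, with a log2 fold change of 0.72 (SE 0.17; edgeR adjusted p = 1.00). That order held for 1.68% of genes.

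Genes reported elsewhere as regulated by Pax3 numbered 14, of which 12 were tested. For diabetic against normal open tissue, where the Pax3 values were lower, 4 had a positive and 8 a negative log2 fold change, with a median of -0.57 (all genes 51.1% positive, median 0.02). In edgeR 0 passed, 3 were below 0.05 before adjustment (7.22% of all genes), and DESeq2 called 0 (1.69% of all genes). Met, Hes1, Fgfr4 and Mcm5 lay below the normal open libraries without overlap (4 of 12, against 15.1% of all genes). Fgfr4, a growth factor receptor, had 35.9 and 49.5 CPM in diabetic closed, 12.25 and 57.9 CPM in diabetic open, 67.85 and 110 CPM in normal closed, and 69.9 and 148 CPM in normal open tissue. It was the only gene of the 12 with all diabetic libraries below all normal ones, an order that 1.15% of all genes had. Met, a receptor needed for muscle precursor migration and chosen here after its values were seen, had 10.4 and 10.6 CPM in diabetic open and 29.1 and 48.3 CPM in normal open tissue. Mcm5, a replication helicase subunit and the most abundant of the list, had 340 and 506 CPM in diabetic open and 734 and 610 CPM in normal open tissue. Cited2, a transcriptional coactivator, had 83.9 and 30.7 CPM in diabetic open and 41.8 and 34.6 CPM in normal open tissue. Ret, a receptor of neural crest cells, had 14.6 and 42.7 CPM in diabetic open and 30.5 and 18.9 CPM in normal open tissue.

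Genes reported elsewhere as regulated by Pax6 were divided by dam. Of 11 tested, 5 had a positive and 6 a negative log2 fold change for diabetic against normal dams, with a median of -0.08 (all genes 52.7% positive, median 0.04). In edgeR 0 passed, 1 was below 0.05 before adjustment (4.55% of all genes), and DESeq2 called 0 (0.314% of all genes). The 4 most abundant were Sox2, Meis2, Ccnd1 and Hes5. Of these, Hes5, a Notch target, had 13.9 CPM in library 13 and between 89.6 and 158 CPM in the 7 others. The levels of Meis2 and Ccnd1 are not given here. Diabetic against normal closed tissue gave log2 fold changes of 0.01 for Sox2, 0.44 for Meis2, 0.63 for Ccnd1 and 0.63 for Hes5. For Pax6 it gave -0.91. Of the 11 genes, 8 were positive and 3 negative there (51.7% of all genes positive), and edgeR called 0 of them and 0 of all genes.

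The p53 list held 8 genes, all tested. For diabetic against normal dams, 6 had a positive and 2 a negative log2 fold change, with a median of 0.45 (all genes 52.7% positive, median 0.04). In edgeR 0 passed, 1 was below 0.05 before adjustment (4.55% of all genes), and DESeq2 called 0 (0.314% of all genes). That gene was Trp53, which encodes p53, with 52.4 and 41.7 CPM in diabetic closed, 80.1 and 75.0 CPM in diabetic open, 32.6 and 23.5 CPM in normal closed, and 15.1 and 53.5 CPM in normal open tissue. Its log2 fold change was 0.96 (SE 0.38; edgeR adjusted p = 0.999), and the dam groups overlapped. Bax, a cell death effector, had 187 to 287 CPM in diabetic and 226 to 364 CPM in normal libraries.

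Markers of other cell types also differed between the libraries. The summed level of 21 paraxial mesoderm markers was 1099 and 840 CPM in diabetic closed tissue, 2067 and 338 CPM in diabetic open tissue, 547 and 396 CPM in normal closed tissue, and 166 and 487 CPM in normal open tissue. All 17 tested members, Pax1 among them, had a positive log2 fold change for diabetic against normal dams (median 1.46), where 52.7% of all genes were positive with a median of 0.04. Of the 17, edgeR called 0, DESeq2 called 1 (0.314% of all genes), and 6 were below 0.05 before adjustment in edgeR (4.55% of all genes). Library 13, lowest in Pax3 and Pax6, had the highest sum. Pax3 and Pax7 are themselves expressed in the somite, so their counts need not all come from neural tissue.

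Endothelium markers (12 listed, Kdr at 0 in diabetic libraries and Flt1 and Eng at 0 in normal ones) summed to between 63.1 and 329 CPM in diabetic and between 26.7 and 60.0 CPM in normal libraries. Primitive blood markers (9 listed, Hbb-y and Hbb-b1 at 0 in all 8 libraries) were highest where Pax3 was lowest, at 925 and 1010 CPM in diabetic open tissue against 63.3 and 1.06 CPM in normal open tissue. Nearly all of that sum was Hba-x, an embryonic globin. Lateral and heart mesoderm markers (12 listed, with Nkx2-5, Tnnt2, Myh6 and Foxf1a at 0 in all 8) reached 248 CPM in library 13 and were at 0 to 9.32 CPM elsewhere. Surface ectoderm markers (12 listed, none at 0 throughout) summed to between 83.7 and 353 CPM in diabetic and between 80.6 and 299 CPM in normal libraries. Notochord and gut endoderm markers (10 listed, Noto at 0) summed to between 40.3 and 73.4 CPM in diabetic and 34.5 and 75.3 CPM in normal libraries. The part of these cells in the Pax differences was not tested.

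The 14 neural progenitor markers summed to between 4552 and 5733 CPM in diabetic and between 4364 and 5675 CPM in normal libraries, library 13 included. Its Sox11 (2746 CPM) and Lin28a (1566 CPM), both also expressed in other embryonic tissues, made up most of its sum. Some other members were lowest in library 13. Sox1 had 15.25 CPM there and 61.5 to 109 CPM elsewhere, Nes 37.8 CPM and 85.3 to 184.5 CPM, and Hes3 3.18 CPM and 28.3 to 73.6 CPM. Sox2 and Hes5, given above, and Sox21 were lowest there too. Sox1, Hes3 and Sox21 were chosen after their values were seen, and the remaining members are not given here. The sum therefore does not show that library 13 held as much neural tissue as the others.

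**Figure D5:**
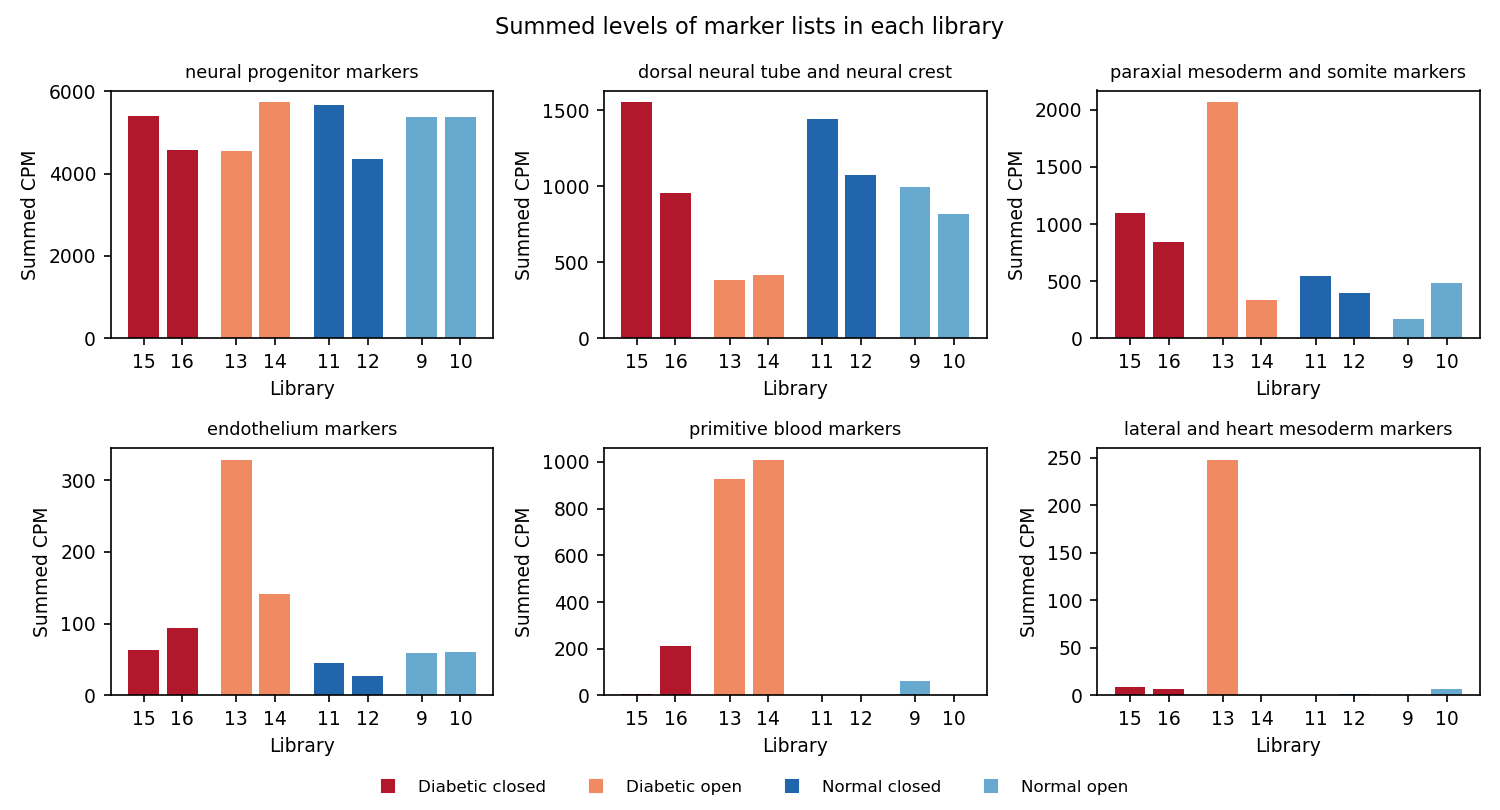
Summed CPM of 6 marker lists in each of the 8 libraries. Neural progenitor sums, carried by Sox11 and Lin28a, lie between 4364 and 5733 CPM. Some members (Sox1, Sox2, Sox21, Hes3, Hes5 and Nes) are lowest in library 13. Dorsal sums are lowest in diabetic open libraries (385 and 415 CPM). Library 13 has the highest paraxial mesoderm (2067 CPM), endothelium (329 CPM) and lateral mesoderm (248 CPM) sums.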

How the data were processed

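The deposited files hold raw tag counts for each gene symbol, 1 file per library. Per the labels' protocols, SOLiD SAGE libraries were built from 7 ng of total RNA each. The submitters' processing notes name the mouse build mm9. Which aligner, counter and annotation were used, and whether strand was kept, is not given in the sources used here. Overlapping or antisense genes and near-identical copies can therefore be mixed.

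The main test was the quasi-likelihood F test of edgeR 4.0.16 in R 4.3.3, after filterByExpr (minimum count 10, minimum total 15) and TMM scaling, with a Benjamini-Hochberg adjusted p below 0.05 over 11779 genes. Region and dam were tested in an additive model, and simple differences and the interaction in a model of the 4 groups. All 8 libraries shared 1 estimate of the spread. The SE of an edgeR log2 fold change, also in the figure, is its absolute value divided by the square root of the F statistic. It is unstable where F is near 0. DESeq2 1.42.0, other scalings, no filter and fits that leave out each library were the alternatives. The code was tested on simulated data. Levels are counts per 1000000 of the library total. Tag sequences came from GENCODE M21 transcripts (GRCm38), and no coordinates are given because that build differs from mm9. Summaries were made in Python 3.11.15.

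The text names Pax genes with a count, the 5 genes most like each member, and of each list the 2 (neural lists 4) members of highest mean CPM, where results call for them. A gene that this rule gave is not reported here. Members and lists were chosen with earlier results of these data known.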

Additional observations from a re-analysis of the deposited data

Results flagged for a closer look

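For 5 Pax genes, 20 sets of 4 libraries (closed, open, diabetic, normal) were searched for a library farther from the nearest other than Dixon's 95% limit allows. Chance passes that limit in about 1 in 20 independent sets of values from a normal distribution. Whether CPM values follow that distribution was not tested, and the 20 sets share libraries, so the rate need not hold here. Pax3 and Pax6 gave none. For Pax7 and Pax9 the other libraries of a set were at 0 or 1 count, which alone puts the ratio at or near its maximum, so that rate does not apply to them and their values are descriptions. Pax7 in library 14 stood at 7.52 CPM, far above the 3 other diabetic libraries and the 3 other open ones. Pax7 in library 12 stood at 4.29 CPM, far above the other closed libraries and the other normal ones. Pax1 in library 13 was at 246.5 CPM, away from the other open libraries. Pax9 in library 16, at 3.07 CPM, stood apart among diabetic libraries, and in library 12, at 3.41 CPM, among normal libraries.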

How the results depend on the processing

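No paired analysis was possible because the library numbers 9 to 16 occur in 1 group each. Of 247 values of Pax3, Pax6 and Pax7 under 12 alternatives, 231 kept their direction and their side of the threshold, 12 reversed and 4 newly passed the threshold; the cause was not tested. Without the filter on low counts, edgeR's adjusted p for Pax3 passed in diabetic dams (closed against open, 2.19) and in open tissue (diabetic against normal, -1.99). That setting tested the 15162 genes with a count. It gave 29, 41 and 22 genes for closed against open tissue (both dams, diabetic, normal). For diabetic against normal dams it gave 89, 138 and 11 (both regions, open, closed), and for the interaction 23. DESeq2 gave 9, 47, 33, 37, 199, 2 and 22 genes in the same order, and edgeR 0 in each.

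With 1 library left out, edgeR's counts over these 7 comparisons reached 3, 21, 18, 2, 61, 3 and 9, from 0 in each. Closed-against-open log2 fold changes ran from 0.58 to 1.52 (both dams), 1.29 to 3.66 (diabetic) and -0.30 to 0.60 (normal) for Pax3, from 0.03 to 1.11, -0.27 to 2.80 and 0.07 to 0.42 for Pax6, and from -6.90 to 4.64 over both dams for Pax7. Diabetic-against-normal ones ran from -1.49 to -0.40 (both regions), -3.46 to -1.28 (open) and -0.78 to 0.67 (closed) for Pax3, from -1.77 to -0.68, -3.46 to -0.39 and -1.04 to -0.76 for Pax6, and from -4.21 to 7.00 over both regions for Pax7. The interaction ran from 1.21 to 3.58 for Pax3 and from -0.50 to 2.57 for Pax6. Pax7 had no value without library 12 in 2 contrasts, where both groups were then at 0. Of 1092 list medians, 76 moved by more than the SD of their members. With 2 libraries a group, 1 library can set the direction.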
